A study of Mus musculus with 5 samples.

Results

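The 8 circadian clock genes Arntl, Clock, Per1, Per2, Cry1, Nr1d1, Nr1d2 and Dbp were followed across the neutrophils of these libraries. They were chosen by name, as 8 of the 21995 genes of the matrix, with earlier results of these data known but by no threshold on a measured value. The cells came from C57BL/6 mice at steady state under specific pathogen-free housing, sorted as live CD11b+ Ly6G+ cells from bone marrow, blood, spleen, lung, liver and intestine. Young mice (10 weeks in the sample labels, 8 weeks in the design text) and mice of 20 months were pooled with all tissues in each of 2 cartridges, one per run of the experiment, here called the pools YO1 and YO2. The barcodes carried only the pool, so neither age nor tissue was analysed here. A difference between cell classes, neutrophil stages included, therefore cannot be told apart from a difference in their make-up by tissue or age. The hour at which the mice were killed is not given in the sources used here, although clock gene levels depend on it.

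The circadian clock is a feedback loop of transcription that most cells run. ARNTL (also called BMAL1) pairs with CLOCK and binds E-box sequences in the promoters of the period genes (Per1, Per2), the cryptochromes (Cry1), the nuclear receptors REV-ERB alpha and beta (Nr1d1, Nr1d2) and the output gene Dbp. PER and CRY proteins then repress ARNTL and CLOCK, while the REV-ERBs repress Arntl. In neutrophils, Arntl is known to drive a daily rhythm of ageing in the blood through the chemokine receptor Cxcr2, which marks fresh cells, and Cxcr4 guides aged cells back to the bone marrow. Per1 is also known as a gene that glucocorticoids and other acute signals induce directly. On mm10 (GRCm38, GENCODE annotation), the protein-coding genes Per1 (chr11:69095217-69109960), Arntl (chr7:113207465-113314126) and Dbp (chr7:45705088-45710203) lie on the plus strand. The others lie on the minus strand: Per2 (chr1:91415982-91459324), Cry1 (chr10:85131700-85185064), Clock (chr5:76209868-76304792), Nr1d1 (chr11:98767932-98775333) and Nr1d2 (chr14:18204054-18239127).

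In the promoter table taken from RefSeq (GRCm38.p6), 7 of the 8 genes had an entry, with 11 windows of 250 bases before a transcript start. Each window was searched on both strands for the E-box CACGTG, the E′-box CACGTT (on the other strand read as AACGTG), the cAMP response element TGACGTCA, the REV-ERB and ROR element TAGGTCA, and the D-box TTATGTAA or TTACGTAA. The upstream sequences of the 2 genes that had an E-box there, Per1 and Cry1, are shown first, and those of Arntl and Nr1d2, which had a different distribution over the cell classes, second. They are printed 5′ to 3′ on the gene's strand, without bases that lie in an annotated exon, with E-box and E′-box letters in capitals.
Per1 (chr11:69098699-69098947, plus strand): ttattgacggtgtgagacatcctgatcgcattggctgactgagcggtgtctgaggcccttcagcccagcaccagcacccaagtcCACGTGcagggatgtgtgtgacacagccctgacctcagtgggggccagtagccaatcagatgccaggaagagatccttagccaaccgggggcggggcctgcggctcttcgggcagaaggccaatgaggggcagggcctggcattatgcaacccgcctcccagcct
Cry1 (chr10:85185065-85185304, minus strand): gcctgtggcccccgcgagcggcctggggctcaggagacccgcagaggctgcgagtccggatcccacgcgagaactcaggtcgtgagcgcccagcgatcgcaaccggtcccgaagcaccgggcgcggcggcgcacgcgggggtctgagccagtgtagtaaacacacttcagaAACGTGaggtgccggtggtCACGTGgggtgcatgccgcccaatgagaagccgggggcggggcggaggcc
Arntl (chr7:113207215-113207464, plus strand): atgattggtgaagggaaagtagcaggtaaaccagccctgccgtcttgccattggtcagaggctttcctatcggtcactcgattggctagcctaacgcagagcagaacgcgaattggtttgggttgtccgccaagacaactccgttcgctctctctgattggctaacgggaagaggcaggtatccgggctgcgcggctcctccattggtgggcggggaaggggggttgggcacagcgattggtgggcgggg
Nr1d2 (chr14:18239128-18239356, minus strand): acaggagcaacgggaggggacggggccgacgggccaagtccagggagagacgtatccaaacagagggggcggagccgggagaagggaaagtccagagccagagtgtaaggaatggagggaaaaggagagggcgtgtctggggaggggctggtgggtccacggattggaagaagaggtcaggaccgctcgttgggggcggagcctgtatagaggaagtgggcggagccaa
The E-box of Per1 lay 166 to 161 bases before the transcript start of the window shown, and that of Cry1 60 to 55 bases before its start. Another Per1 window (chr11:69099902-69100151), not shown, held none of the motifs searched. Cry1 also had an E′-box at 79 to 74 bases before the start, and the Nr1d1 window had one at 28 to 23 bases. None of the motifs searched was found in the windows shown for Arntl and Nr1d2, nor in those of Clock and Dbp. Of all 32851 windows in the table, 6.02% held the E-box, 3.85% the E′-box, 1.55% the cAMP response element, 2.23% the REV-ERB and ROR element and 0.931% a D-box. A letter match is a description of the window, not of binding.

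Reads had been counted as unique molecular identifiers (UMIs, 1 per captured mRNA molecule). After filtering (at least 200 UMIs and 100 genes, under 20% mitochondrial UMIs), 19505 cells of YO1 (median 1231 UMIs) and 17215 of YO2 (median 1454 UMIs) were kept. Cells were gated by genes outside the clock set. Cycling cells had at least 2 UMIs of Mki67 and Top2a, Ltf-high cells at least 5 UMIs of the secondary granule gene Ltf, and Ngp-positive cells at least 10 UMIs of Ngp with little Ltf. Mature neutrophils had S100a8 and S100a9 at 2% or more of their UMIs and under 3 Ngp UMIs. In YO1 and YO2 respectively there were 828 and 182 cycling, 2234 and 451 Ltf-high, 444 and 33 Ngp-positive and 10325 and 10045 mature cells, beside 1310 and 1116 monocytes, 573 and 932 macrophages and 315 and 762 lymphocytes. All 9 mature neutrophil markers, Csf3r and Ly6g among them, had UMIs in every class of both pools. Levels are given as CPM (UMIs per 1000000 UMIs of a class and pool). Summed over the 9 markers, mature cells had 87553 and 71394 CPM, below Ltf-high (162120 and 154374) and Ngp-positive cells (192121 and 166862). Monocytes had 5454 and 6382 CPM, macrophages 3242 and 4279, and lymphocytes 4064 and 3059. The list includes S100a8 and S100a9, which gate the mature cells. Of the cycling cells, 704 of 1010 also held 5 or more Ltf UMIs, and 261 passed no other gate. Immunoglobulin genes (Igkc, Igha, Jchain) reached 436294 CPM in the lymphocytes of YO2 and 105877 in those of YO1. They also reached 76030 in the Ngp-positive and 56887 in the cycling cells of YO2. Such a share lowers the CPM of all other genes in a sum. Its part in the values of these sums, lymphocytes included, was not tested.

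Levels are CPM of the UMIs summed over a class in a pool, and the pools are the replicates. Ratios of CPM follow the scale of total UMIs and can differ from the fitted changes. The tests used edgeR on these sums, with the pool as a block and Benjamini-Hochberg adjustment over the 11820 genes tested. All 8 clock genes passed the filter on low counts in that fit. With 1 sum per class and pool and the pool as a block, the p-values rest on counting error and on how far class differences disagree between these 2 pools. That spread is shared over all classes of the fit, and each gene's value is drawn towards that of the other genes. No spread beyond these 2 pools is measured. Because depth per cell fell from a median of 6212.5 UMIs in cycling to 1029 in mature cells of YO1, and from 7928.5 to 1353 in YO2, a share of UMIs and a number of UMIs per cell give different pictures, and both are given for Per1. Replacing the TMM scaling of edgeR with total UMIs shifted the median log2 change of all genes from 0.05 to -0.78 for Ltf-high against cycling cells, and from 0.09, 0.06 and -0.02 to 0.83, 0.91 and 0.41 for monocytes, macrophages and lymphocytes against mature neutrophils. Changes below are on the TMM scale, and total-UMI values are added where they end a call. The SE given with an edgeR change was derived as its size divided by the square root of the F statistic. It is an approximation and need not match the p-value.

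Per1, which encodes a repressor subunit of the clock, had the most UMIs of the 8 genes in mature neutrophils, 2735 in YO1 (218 CPM) and 3052 in YO2 (189 CPM). It stood at 19.0 and 37.7 CPM in cycling cells, 34.1 and 43.3 CPM in Ltf-high cells and 51.9 and 73.9 CPM in Ngp-positive cells. The mature values were above those of the 6 other classes in both pools. Per1 was higher in mature than in Ngp-positive cells by 1.68 ± 0.29 (log2 change ± SE, edgeR adjusted p = 0.0049), and than in Ltf-high cells by 2.32 ± 0.24 (edgeR adjusted p = 2.3e-05). It was 1.40 ± 0.25 higher in Ltf-high than in cycling cells (edgeR adjusted p = 0.00082), a call that ended with total UMIs (0.51, adjusted p = 0.206). Within each pool that difference was 1.40 in YO1 and 0.84 in YO2, on TMM-scaled CPM with 1 added. The step from Ltf-high to Ngp-positive cells, 0.64 ± 0.30, did not pass (edgeR adjusted p = 0.318).

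**Figure D1:**
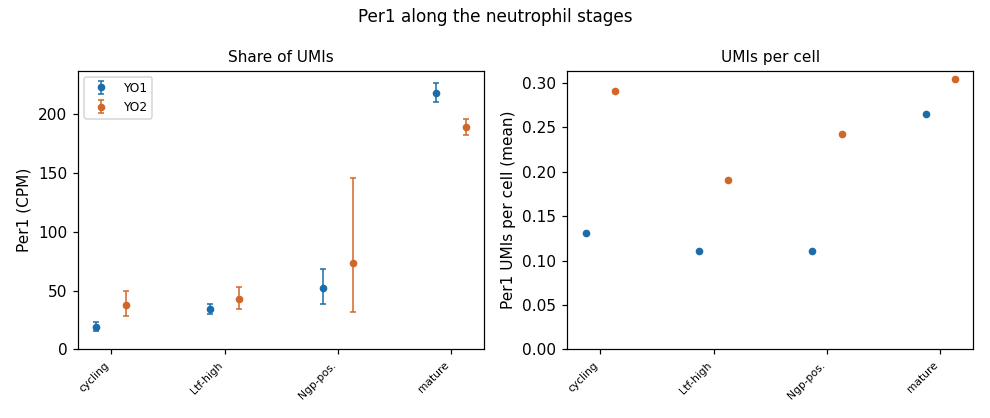
Per1 in the 4 neutrophil stages of YO1 (blue) and YO2 (orange), as CPM of the summed UMIs with exact 95% Poisson intervals (left) and as mean UMIs per cell (right). The share of UMIs is highest in mature cells in both pools, as are the UMIs per cell, at 0.265 and 0.304. The cycling value of 0.291 UMIs per cell in YO2 comes mostly from cells without granule genes, with 51 of its 53 UMIs.

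Counted per cell, Per1 depended on which cycling cells were taken. YO1 had 0.130 Per1 UMIs per cycling cell, 0.111 per Ltf-high cell, 0.110 per Ngp-positive cell and 0.265 per mature cell. YO2 had 0.291, 0.191, 0.242 and 0.304. Mature cells were highest of the 4 stages in both pools. Cycling cells with granule genes (at least 5 Ltf or 10 Ngp UMIs) had 0.0753 Per1 UMIs per cell in YO1 and 0.0308 in YO2, the latter on 2 UMIs in 65 cells, below the mature cells of either pool. Cycling cells without them had 0.354 and 0.436, above the mature cells. More Per1 mRNA per cell and less of other mRNAs cannot be told apart by a share of UMIs. At a fixed 1000 UMIs per cell, which left out the shallower cells (4740 of 10325 mature cells in YO1 and 1115 of 10045 in YO2), 18.1% and 16.9% of mature cells had a Per1 UMI. The same share was 1.98% and 3.93% in cycling cells and 3.25% and 4.76% in Ltf-high cells. Without thinning, it was 21.1% and 23.1% in mature and 10.1% and 19.8% in cycling cells. No class here is known to lack these genes, so the part of free RNA in such shares was not tested.

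Per2, the partner of Per1 in the repressor complex, showed no called change between Ltf-high and mature cells. It stood at 22.0 and 8.54 CPM in cycling, 28.7 and 28.2 CPM in Ltf-high and 32.0 and 42.2 CPM in mature cells of YO1 and YO2. Ngp-positive cells had 7 and 4 Per2 UMIs in all (7.41 and 36.9 CPM). Per2 was 1.54 ± 0.42 higher in Ltf-high than in cycling cells (log2, edgeR adjusted p = 0.0095), a call lost with total UMIs (0.76, adjusted p = 0.170) and with DESeq2 (1.10, adjusted p = 0.072), and stood at 0.96 within YO1 and 2.23 within YO2. Between Ltf-high and mature cells it differed by 0.27 ± 0.38 (edgeR adjusted p = 0.638). Cry1, a cryptochrome that represses ARNTL and CLOCK, stood between 21.6 and 35.2 CPM in cycling, Ltf-high and mature cells of both pools, and none of its stage steps passed. The Ngp-positive cells of YO2 had 0 Cry1 UMIs, where 3 UMIs would be 27.7 CPM.

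The activators were low in neutrophils. Arntl stood at 5.27 and 4.27 CPM in cycling cells, 1.51 and 0.503 CPM in Ltf-high cells and 1.99 and 1.92 CPM in mature cells. Clock, the partner of ARNTL, stood at 3.16 and 9.26, 2.61 and 2.01, and 5.66 and 3.60 CPM in the same classes. A mature neutrophil held on average 0.00275 Arntl and 0.00633 Clock UMIs, against 0.284 Per1 UMIs, over both pools. UMI counts are not corrected for how well each mRNA is captured. The REV-ERB genes and Dbp were as rare. Nr1d1 had 14 and 3 UMIs in all mature cells of YO1 and YO2, Nr1d2 had 18 and 9, and Dbp, a transcription factor that reads out the clock, had 25 and 28. Arntl, Nr1d1 and Dbp had 0 UMIs in the Ngp-positive cells of both pools, which allows up to 2.85 CPM (3 UMIs of the sum). Nr1d1 shares 263 exon bases with Thra on the opposite strand and Dbp shares 539 with Sphk2, and the strand setting of the counting is not given in the sources used here, so their few UMIs are uncertain.

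**Figure D2:**
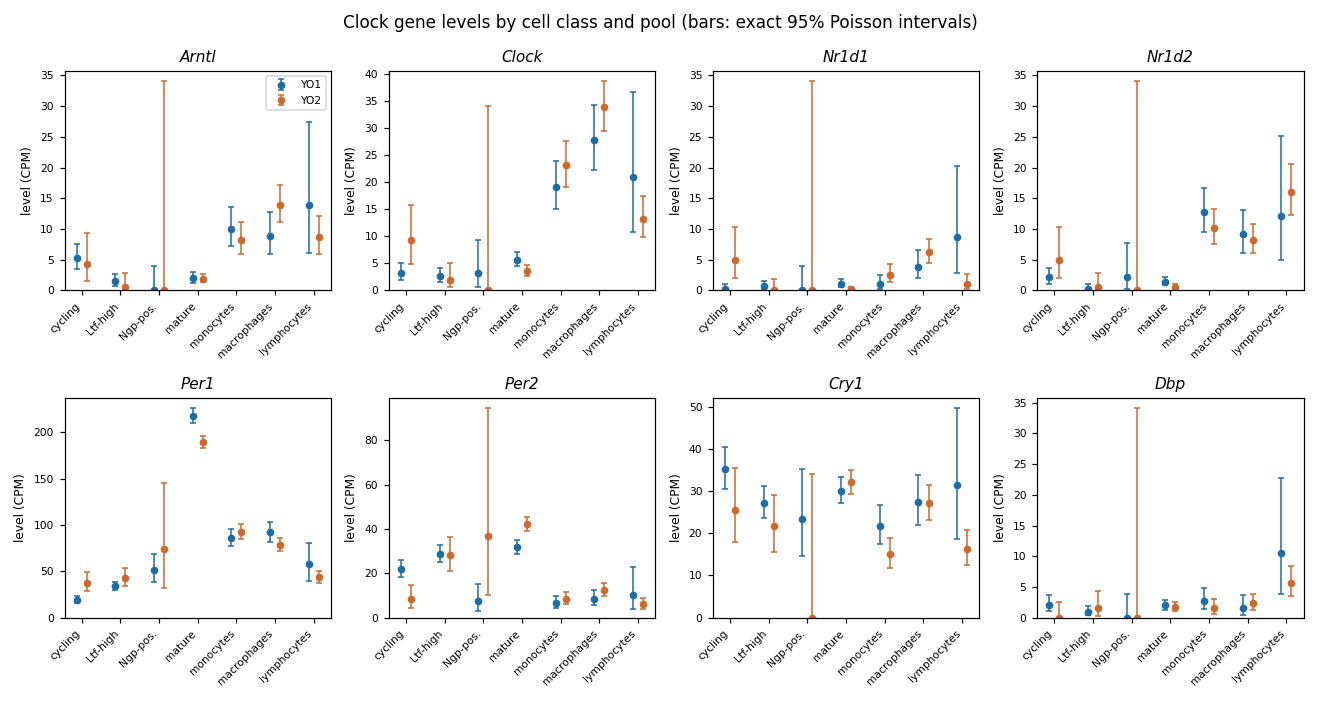
Levels of the 8 clock genes (CPM, separate linear axes from 0) in 4 neutrophil stages and 3 other leukocyte classes, with YO1 in blue and YO2 in orange and exact 95% Poisson intervals. Per1 and Per2 are highest in mature neutrophils, whereas Arntl, Clock and Nr1d2 are highest in monocytes, macrophages and lymphocytes.

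The cycling class held 2 kinds of cell with different clock gene levels. Those with granule genes (664 and 65 cells) had 11.4 and 4.18 CPM of Per1 (the latter on 2 UMIs), 26.3 and 14.6 CPM of Per2 and 39.3 and 37.6 CPM of Cry1. Cycling cells without them (164 and 117 cells) had 45.2 and 55.1 CPM of Per1, 7.02 and 5.40 CPM of Per2 and 21.1 and 19.4 CPM of Cry1. Per1 was thus higher, and Per2 and Cry1 lower, in the cycling cells without granule genes of both pools, a difference that was not tested. The cells without granule genes carried few neutrophil markers, with mature neutrophil markers at 6108 and 5760 CPM against 121414 and 136658 CPM in those with them. They carried more markers of other cells, with plasma cell genes at 9477 and 85901 CPM against 449 and 823 CPM, macrophage markers at 758 and 1385 CPM against 103 and 169 CPM, and basophil and mast cell markers at 1362 CPM in YO1 (0 in YO2) against 7.04 and 4.18 CPM. The part of these other cells in the clock gene levels was not tested. Those cells also held 28 of the 36 Arntl UMIs, 25 of the 31 Clock UMIs and 16 of the 19 Nr1d2 UMIs of the class. Markers of other cells were more frequent in the cycling class of YO2, where 48 of 182 cells had at least 3 macrophage and 25 had at least 3 lymphocyte marker UMIs. In YO1 these were 70 and 18 of 828 cells. With only the granule-gene cells kept as cycling, a comparison added after the data were seen, Per1 was 2.22 higher in Ltf-high cells (edgeR adjusted p = 3.1e-05) and Per2 was 0.55 higher (adjusted p = 0.154).

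Nr1d2 was called lower in Ltf-high than in cycling cells (-2.29 ± 0.88, edgeR adjusted p = 0.049), on 3 UMIs against 19. The ratio of the 2 levels was 0.121, with a counting interval of 0.0229 to 0.411. The call ended with the granule-gene cells alone (-0.49, adjusted p = 0.804), after thinning, under stricter gates and without cells that held markers of other types. In all, 2 of the 8 genes were called higher and 1 lower in Ltf-high than in cycling cells, against 27% and 20.6% of all genes tested. From Ltf-high to Ngp-positive cells 0 of 8 were called by edgeR, with 0 at an unadjusted p under 0.05 and 0 by DESeq2 (which gave no adjusted p for 6 of them), against 1.11% of all genes higher and 0.761% lower. From Ngp-positive to mature cells 1 was called higher and 0 lower, against 3.12% and 3.4%. From Ltf-high to mature cells 1 was called higher and 0 lower, against 14.8% and 15.9%, and in both steps that gene was Per1.

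As a share of UMIs on the TMM scale, the period genes and Cry1 were lower in the other leukocytes than in mature neutrophils. Arntl, Clock and Nr1d2 were higher there. Per1 stood at 86.3 and 92.7 CPM in monocytes, 92.4 and 78.5 CPM in macrophages and 57.5 and 43.8 CPM in lymphocytes, all below the mature neutrophils of either pool. The log2 changes against mature neutrophils were -1.94 ± 0.23, -2.12 ± 0.23 and -2.53 ± 0.25 (edgeR adjusted p = 2.4e-05, 7.1e-06 and 3.6e-06). Per2 stood at 6.60 and 8.61 CPM in monocytes, 8.52 and 12.6 CPM in macrophages and 10.5 and 6.11 CPM in lymphocytes. It was lower by 3.02 ± 0.43, 2.65 ± 0.41 and 2.76 ± 0.49 on the log2 scale, and all 3 passed with edgeR (the highest adjusted p was 0.00039). Per2 thus had the largest fitted fall of the 8 genes in each of the 3 comparisons, although in lymphocytes of YO1, on 6 Per2 UMIs, the CPM ratio was lower for Per1 (0.264 against 0.327).

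Per cell the order of Per1 was another. Macrophages, with medians of 5586 and 6874 UMIs, held 0.511 and 0.543 Per1 UMIs per cell, above the 0.265 and 0.304 of mature neutrophils, and monocytes held 0.269 and 0.425. The macrophages also had immature neutrophil markers at 12655 and 10151 CPM, against 2298 and 1390 CPM in mature neutrophils (Chil3, which alveolar macrophages also express, made up 12457 and 10061 CPM of the macrophage values), and 113 of 573 and 220 of 932 of them had at least 3 eosinophil marker UMIs. The part of these markers' cells in the macrophage values was not tested. For Per2 the per-cell values were 0.0388 and 0.0677 in mature neutrophils, 0.0206 and 0.0394 in monocytes and 0.0471 and 0.0869 in macrophages. At 1000 UMIs per cell, 6.97% and 8.94% of monocytes and 12.5% and 10.5% of macrophages had a Per1 UMI, below the 18.1% and 16.9% of mature neutrophils. Cry1 had 21.8 and 15.1 CPM in monocytes, 27.4 and 27.1 CPM in macrophages and 31.4 and 16.3 CPM in lymphocytes. Mature neutrophils had 30.1 and 32.1 CPM, so that only the lymphocyte value of YO1 overlapped them. In the lymphocytes of YO2, immunoglobulin genes held 436294 CPM, which lowers the CPM of every other gene there. Of 4509 lymphocyte genes with at least 100 UMIs, 2688 were past 1.5-fold higher in YO1 and 204 past it lower. Cry1 was called lower in all 3 classes (-1.53, -1.05 and -0.98). The calls in macrophages and lymphocytes ended with total UMIs (-0.19 and -0.54) and with DESeq2 (-0.43 and -0.38). Counted per cell, Cry1 was higher in all 3 classes than in mature neutrophils of the same pool. It had 377 and 517 UMIs in 10325 and 10045 mature cells, and 87 and 175 in 573 and 932 macrophages. Monocytes had 89 and 77 Cry1 UMIs in 1310 and 1116 cells, and lymphocytes 18 and 64 in 315 and 762 cells.

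The activators and Nr1d2 were higher outside neutrophils. Clock stood at 19.1 and 23.1 CPM in monocytes, 27.8 and 33.8 CPM in macrophages and 20.9 and 13.2 CPM in lymphocytes, higher than in mature neutrophils by 1.43 ± 0.35, 1.87 ± 0.35 and 1.31 ± 0.39 (log2, edgeR adjusted p = 0.0038, 0.00045 and 0.011). Arntl stood at 10.0 and 8.21, 8.83 and 14.0, and 13.9 and 8.65 CPM in these classes, higher by 1.46 ± 0.40, 1.70 ± 0.40 and 1.97 ± 0.44 (edgeR adjusted p = 0.0091, 0.0028 and 0.0023). At 1000 UMIs per cell the Arntl call in monocytes was lost (0.83, edgeR adjusted p = 0.296). Nr1d2, a repressor of Arntl, stood at 12.7 and 10.2 CPM in monocytes, 9.15 and 8.22 CPM in macrophages and 12.2 and 16.0 CPM in lymphocytes, and was higher by 2.78 ± 0.51, 2.27 ± 0.52 and 3.53 ± 0.55 (the highest edgeR adjusted p was 0.0020). No pool's value in these classes reached down to a mature neutrophil value for any of the 3 genes. Within each pool alone, on TMM-scaled CPM with 1 added, the log2 change in monocytes, macrophages and lymphocytes of Nr1d2 was 1.92, 1.42 and 1.67 in YO1 and 2.36, 2.05 and 3.47 in YO2, and that of Clock was 0.90, 1.32 and 0.81 in YO1 and 1.64, 2.13 and 1.39 in YO2.

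**Figure D3:**
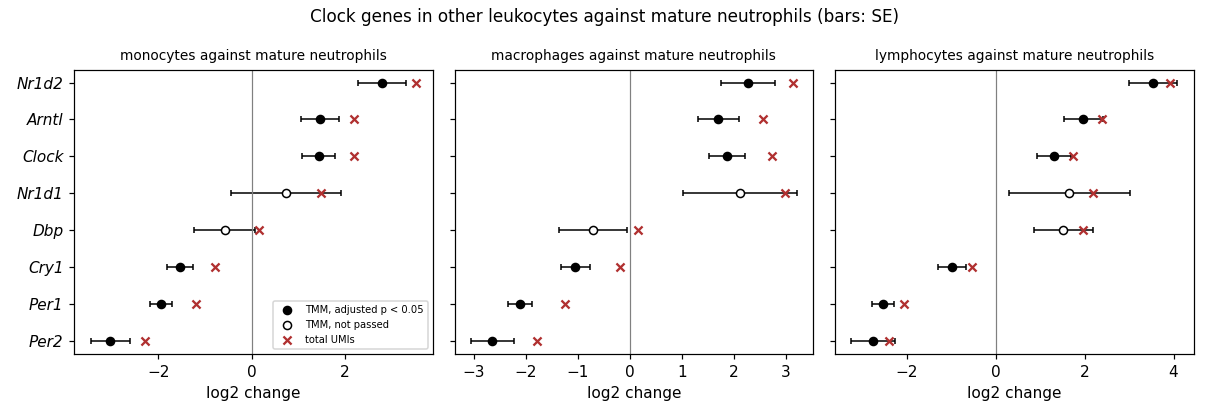
Log2 change of each clock gene in monocytes, macrophages and lymphocytes against mature neutrophils. Black points with SE bars are the TMM values (filled where the edgeR adjusted p is under 0.05) and red crosses the values with total UMIs. Per1, Per2 and Cry1 lie below 0 and Arntl, Clock and Nr1d2 above 0 in all 3 panels under both scalings, while Dbp changes sign in monocytes and macrophages.

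Nr1d1 and Dbp did not pass in any of the 3 comparisons. Nr1d1 reached 3.79 and 6.20 CPM in macrophages against 1.12 and 0.186 CPM in mature neutrophils (2.11 ± 1.10, edgeR adjusted p = 0.108), and passed with total UMIs (2.97, adjusted p = 0.044) and once stage cells with 3 or more UMIs of macrophage, lymphocyte or endothelial markers were left out (4.06, adjusted p = 0.00082). Without those cells it also passed in monocytes (2.59, edgeR adjusted p = 0.027) and lymphocytes (3.45, edgeR adjusted p = 0.013). Dbp reached 10.5 and 5.60 CPM in lymphocytes against 1.99 and 1.74 CPM (1.52 ± 0.66, edgeR adjusted p = 0.064), and passed with DESeq2 (2.13, adjusted p = 0.0043). In each of the 3 comparisons 3 of the 8 genes were called higher and 3 lower. Of all genes tested, 28.9% were higher and 27.9% lower in monocytes, 34.2% and 32.5% in macrophages and 31.6% and 30.5% in lymphocytes. The 3 comparisons share the mature neutrophil sums.

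As a share of UMIs, Cxcr2 and Cxcr4 were both highest in mature neutrophils among the 7 classes. Cxcr2 went from 184 and 350 CPM in cycling cells through 869 and 1154 CPM in Ltf-high cells to 2882 and 3713 CPM in mature cells. Cxcr4 went from 331 and 359 CPM through 403 and 391 CPM to 1320 and 1296 CPM, and stood at 2098 and 1806 CPM in low-S100 neutrophils outside the mature gate. Per cell, cycling cells had more Cxcr4 UMIs (2.27 and 2.77) than mature cells (1.60 and 2.08). Both were higher in mature than in Ltf-high cells, by 1.61 ± 0.22 and 1.62 ± 0.19 on the log2 scale (edgeR adjusted p = 0.00015 and 5.3e-05). To set the clock genes beside these receptors, mature cells were split by their UMIs into Cxcr2 only (3084 and 2571 cells), Cxcr4 only (454 and 123), both (6428 and 7284) and neither (359 and 67). A missing UMI can be a sampling miss, so these classes need not be receptor-negative cells, and they differed in depth. Cells deep enough for thinning numbered 1499 and 2187 with Cxcr2 only and 132 and 82 with Cxcr4 only. They numbered 3891 and 6618 with both and 63 and 43 with neither. Of those with both, 86.6% and 84.8% kept a Cxcr4 UMI after thinning. The part of such misses in the classes was not tested.

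Per1 stood at 191 and 179 CPM in Cxcr2-only, 228 and 190 CPM in double-positive, 241 and 271 CPM in Cxcr4-only cells and 199 and 418 CPM in cells with neither, the last 2 on 58 and 33 UMIs. In both pools the Cxcr2-only cells had the lowest value, and the highest was in Cxcr4-only cells in YO1 and in cells with neither in YO2. The difference of 0.34 ± 0.17 on the log2 scale between Cxcr4-only and Cxcr2-only cells did not pass (edgeR adjusted p = 0.518). Per2 stood at 23.9 and 38.6 CPM in Cxcr2-only and 59.1 and 52.9 CPM in Cxcr4-only cells, the latter on 25 and 8 UMIs (0.89 ± 0.32, edgeR adjusted p = 0.233). Cry1 differed in opposite directions in the pools, with 27.5 and 34.0 CPM against 42.5 and 26.4 CPM, the last on 4 UMIs. Of the 4 clock genes that could be tested, 0 were called by edgeR, with 2 at an unadjusted p under 0.05 and 0 by DESeq2, which gave no adjusted p for 7 of the 8. Nr1d1, with 3 UMIs on each side, had 3.01 (edgeR adjusted p = 0.558). Of the 7958 genes in this fit, 0.741% were called higher and 0.339% lower. The immediate early genes Atf3 (0.85), Fosb (0.62) and Nr4a1 (0.78) were among those higher in Cxcr4-only cells, and none of the 12 immediate early genes was called there without the pool as a block.

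Among other subsets of mature cells, Per1 was higher where activation markers were gated. Cells with at least 3 UMIs of Il1a, Icam1, Nr4a3 and Ccrl2 (373 and 789 cells) had 280 and 305 CPM, above all mature cells of their pool (218 and 189 CPM). Cells with an Egr1 UMI had 288 CPM in YO1 but 199 CPM in YO2, where 5127 of 10045 mature cells had one against 2126 of 10325 in YO1. Cells of the Stfa2l1 and Asprv1 subset (208 and 180 CPM), the Scnn1a and Slc40a1 subset (225 and 179 CPM) and the interferon subset (226 and 203 CPM) lay close to the whole. Outside the mature gate, 1035 and 2929 cells had at least 3 UMIs of Csf3r, Cxcr2 and Il1r2 but under 2% S100a8 and S100a9, and their Per1 level of 309 and 343 CPM was above that of the mature cells in both pools. A lower share of S100 mRNA raises the share of every other gene in such a gate, and its part in this value was not tested. The subsets overlap and were not tested against each other.

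**Figure D4:**
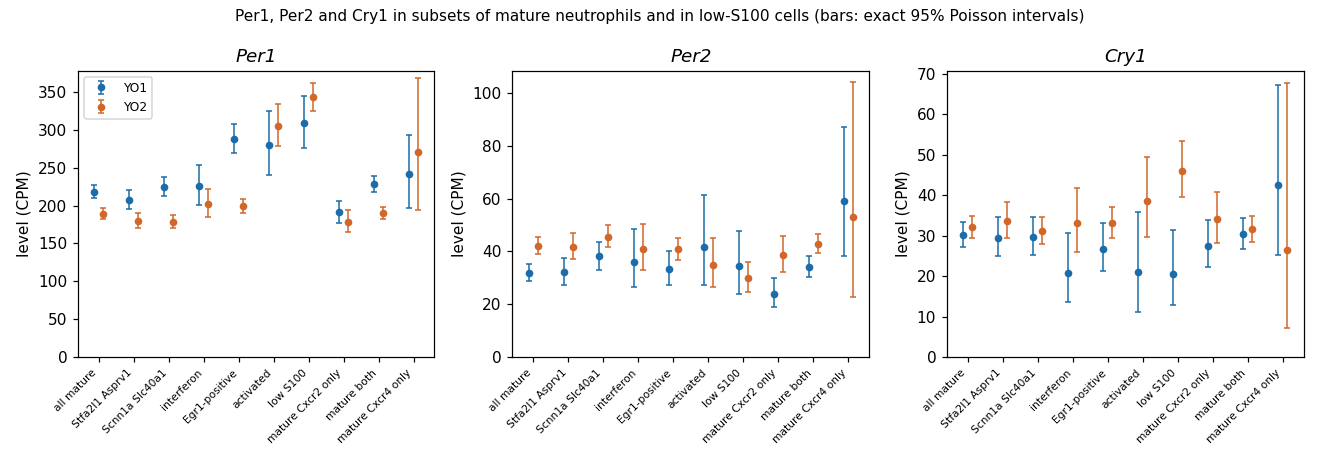
Per1, Per2 and Cry1 (CPM, exact 95% Poisson intervals) in all mature neutrophils, in marker-gated subsets of them and in neutrophils with low S100a8 and S100a9, for YO1 (blue) and YO2 (orange). Per1 is highest in the low-S100 cells, at 309 and 343 CPM, while Per2 and Cry1 show no subset that is highest in both pools outside the sparse Cxcr4-only cells for Per2.

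The 2 pools, 1 library each, gave no test between them. In mature neutrophils the ratio of YO1 to YO2 was 1.15 for Per1 (95% counting interval 1.09 to 1.21), 0.758 for Per2 (0.669 to 0.859), 0.938 for Cry1 (0.819 to 1.07) and 1.57 for Clock (1.10 to 2.27). Clock alone among these 4, the members with at least 100 UMIs there, passed 1.5-fold, in a class where 7.52% of 7871 genes were past it upwards and 2.12% downwards. The intervals cover counting error only. In cycling cells Per1 was 0.503 (0.359 to 0.713) and Per2 2.57 (1.42 to 5.11), and the share of cycling cells without granule genes differed between the pools as given above.

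Of 33 other genes of the clock and its regulators, 29 could be tested. From Ltf-high to mature cells 8 were higher, 6 lower and 15 not passed (median log2 change 0.02, against 0.04 for all genes), and with total UMIs 8 were higher and 3 lower. On the TMM scale, 14.8% of all genes tested were higher and 15.9% lower in this step. Csnk1e, a kinase that marks PER proteins for breakdown, was 99.3 and 103 CPM in Ltf-high and 270 and 283 CPM in mature cells (1.35 ± 0.16, edgeR adjusted p = 6.3e-05). Klf10, a clock-controlled transcription factor, was higher by 1.46 ± 0.25 and Usp2, a deubiquitinase of clock proteins, by 1.25 ± 0.42. Noct, a rhythmic phosphatase also called nocturnin, was 33.0 and 30.2 CPM in Ltf-high and 11.8 and 10.5 CPM in mature cells (-1.61 ± 0.21, edgeR adjusted p = 0.00011). Hlf, a PAR bZIP factor related to Dbp, was lower by 2.60 ± 0.68 and the casein kinase subunit Csnk2a1 by 0.87 ± 0.24. All 6 kept their direction and passed with total UMIs and DESeq2.

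In the step from cycling to Ltf-high cells, 10 of these 29 genes were higher and 5 lower, against 27% and 20.6% of all genes tested. That split turned to 1 and 11 with total UMIs and to 5 and 10 with DESeq2. With granule-gene cells alone as cycling it turned to 5 and 6, so it depended on which cycling cells were taken. Wee1 (-4.82), a mitotic kinase under clock control, and Timeless (-4.27), which acts at replication forks, were lower under TMM, total UMIs and DESeq2. So was Bhlhe41 (-2.98), a repressor at E-boxes, at -1.18 within YO1 and -4.99 within YO2. Csnk1e (1.74) was higher under all 3, and Nfil3 (1.37), a repressor at D-boxes, lost its call with total UMIs. From Ltf-high to Ngp-positive cells 2 were higher and 0 lower, Nampt (1.64), the enzyme that salvages NAD, and Csnk1e (1.10). Of all genes tested, 1.11% were higher and 0.761% lower there. From Ngp-positive to mature cells 2 were higher, Klf10 (2.17) and Nfil3 (1.09), and 2 lower, Noct (-1.26) and Nampt (-0.88), of which only Klf10 passed with total UMIs. On the TMM scale, 3.12% of all genes tested were higher and 3.4% lower in this step. Within YO2 alone, whose Ngp-positive sum had 33 cells, the TMM-scaled log2 change of Noct was 0.039 and that of Nampt -0.049. Csnk1e lost its call in the step before it with total UMIs (1.06, adjusted p = 0.125).

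Against mature neutrophils, 6 of the 29 genes were higher and 10 lower in monocytes, 5 and 11 in macrophages and 6 and 13 in lymphocytes. With total UMIs these became 12 and 4, 13 and 5, and 7 and 9, and with DESeq2 10 and 7, 11 and 7, and 10 and 9. On the TMM scale, 28.9% of all genes tested were higher and 27.9% lower in monocytes. These shares were 34.2% and 32.5% in macrophages and 31.6% and 30.5% in lymphocytes. Rora, an activator of Arntl that competes with the REV-ERBs, was 47.0 and 58.6 CPM in macrophages against 1.52 and 1.74 CPM in mature neutrophils (4.14 ± 0.40, edgeR adjusted p = 2.9e-06). Bhlhe41 was higher in macrophages (5.76) and lymphocytes (5.15), Noct in macrophages (1.84), Tef, another PAR bZIP factor, in monocytes (2.16) and lymphocytes (2.65), Rora also in monocytes (1.59), Timeless in monocytes (3.04) and Wee1 in lymphocytes (3.27). Csnk1e was lower in macrophages (-2.04) and lymphocytes (-2.87), Usp2 in monocytes (-2.60) and lymphocytes (-3.59), Nfil3 in lymphocytes (-3.43) and the corepressor Ncor1 in macrophages (-2.38). Hlf was called lower in monocytes (-2.32), on 1 and 5 UMIs there, which ended with total UMIs and with DESeq2, and had 0 UMIs in macrophages of both pools.

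Beside Per1 stand the immediate early genes, the transcription factors and feedback genes that cells switch on within minutes of a stimulus or of handling. All 12 of those listed (Fos, Fosb, Jun, Junb, Jund, Egr1, Ier2, Ier3, Nr4a1, Atf3, Zfp36 and Btg2) were higher in mature than in Ltf-high cells (median 2.65, against 0.04 for all genes) and than in Ngp-positive cells (median 1.89). Of all genes tested, 14.8% were higher against Ltf-high cells and 3.12% against Ngp-positive cells. The 12 calls against Ltf-high cells were also made with total UMIs and DESeq2, and 7 of those against Ngp-positive cells with total UMIs. Without the pool as a block 9 and 4 of them passed. In monocytes 10 of 12 were lower than in mature neutrophils, in macrophages and lymphocytes 12 of 12. With total UMIs these became 6, 9 and 10. On the TMM scale, 27.9%, 32.5% and 30.5% of all genes tested were lower in these classes. Of 10 genes that glucocorticoids induce, 5 were higher in mature than in Ltf-high cells and 0 lower, among them Tsc22d3 (2.20 ± 0.25), Dusp1 (3.34 ± 0.37), Zbtb16 (2.60 ± 0.35) and Cdkn1a (3.30 ± 0.42). Fkbp5, another of them, had -0.08 ± 0.32 (edgeR adjusted p = 0.884). Against mature neutrophils 2 of the 10 were higher and 5 lower in monocytes, 2 and 4 in macrophages, and 0 and 8 in lymphocytes, where 30.5% of all genes were lower. With total UMIs these became 2 and 2, 4 and 3, and 0 and 6. The part of cell handling or of hormones in the level of Per1 was not tested.

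Across the 14 sums of class and pool, genes with a level pattern most like that of Per1 were Dusp1 (Pearson's r of log2(CPM + 1) 0.967) and Btg2 (0.960). For Per2 they were Cox17 (0.922), Ralgapa1 (0.849) and Slc40a1 (0.812), for Cry1 Fnip1 (0.972), Ufd1 (0.970) and Nrf1 (0.969), for Arntl Sar1a (0.970), Mtap (0.969) and Bfar (0.967), and for Clock Camk2d (0.978), Tmem176a (0.976) and Gramd4 (0.972). Nr1d2 was most like Bmyc (0.958), Rftn1 (0.957) and Acss1 (0.945). Dbp (Bcl9l, 0.869) rested on 142 UMIs. These are descriptions over sums that share 2 libraries, picked from the highest of 5464 or 5465 genes.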

How the data were processed

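Per the labels' protocols, sorted cells were loaded on BD Rhapsody cartridges and whole transcriptome libraries were sequenced as reads of 60 and 42 bases. The authors deposited 1 matrix of UMI counts (21995 genes, 38072 barcodes), whole numbers that were used as deposited. Per the submitters' processing notes the build was mm10. Which aligner, annotation and cell calling were used is not given in the sources used here. Sample tag and antibody libraries were not analysed here. The pools share 406 barcode numbers, which were kept apart by pool.

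No doublet caller was applied; cells with markers of other types were left out in alternatives. Monocytes, macrophages and lymphocytes had at least 5 UMIs of their marker list, more than of any other cell type's list. They were taken from cells with S100a8 and S100a9 under 2%, under 3 Ngp, under 5 Ltf and under 2 Mki67 and Top2a UMIs. The S100 share thus also set them apart from mature cells. The mature gate used no markers of other types, and 651 and 708 mature cells of YO1 and YO2 had at least 3 monocyte marker UMIs. UMIs were summed per pool and class with at least 30 cells and fitted by quasi-likelihood with edgeR 4.0.16 in R 4.3.3 (TMM scaling, genes kept by filterByExpr, two-sided tests, threshold 0.05), in 1 fit over 14 sums with the pool as a block, since the classes of a pool come from 1 library. The Cxcr2 and Cxcr4 classes had a fit of their own. DESeq2 1.42.0 was an alternative. Intervals are exact Poisson, Clopper-Pearson or binomial-split, at 95%, and cover counting error only. The count test was checked on simulated data. All 8 genes are named in every comparison. Of the other clock genes, up to 3 highest and 3 lowest passing changes per comparison are named. Some genes that these rules name are not reported here. Likeness used genes averaging at least 20 CPM. The members, lists and tests were chosen with earlier results of these data known. Sums and figures were made in Python 3.11.15 with pandas 2.3.3, numpy 2.4.6, matplotlib 3.10.9 and scipy 1.17.1.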

Additional observations from a re-analysis of the deposited data

How the results depend on the processing

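The calls of Per1 in mature against Ltf-high and Ngp-positive cells and of Per1, Per2, Clock and Nr1d2 against the other leukocytes kept their direction and their side of the threshold under every alternative that gave a test. For Ltf-high against cycling cells, the number of clock genes called higher was 0 with total UMIs and 1 with DESeq2, with thinning to 1000 UMIs and with granule-gene cycling cells alone. The number called lower was 2 with total UMIs, with DESeq2 and without the Ngp-positive sums, and 0 with thinning, stricter gates, granule-gene cycling cells alone and without cells with 3 macrophage, lymphocyte or endothelial UMIs. For mature against Ngp-positive cells 2 were called higher with no filter on low counts, with thinning and with granule-gene cycling cells. For mature against Ltf-high cells 2 were called higher under stricter gates and with granule-gene cycling cells. For lymphocytes 5 were called higher without cells carrying other markers. The Per1 ratio of the pools was 1.09 after thinning. The causes were not tested.

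Among the 8 clock genes, directions turned only for values that had not passed. For Ltf-high against cycling cells, Cry1 turned to -0.32 (total UMIs), -0.020 (DESeq2) and -0.27 (granule-gene cells), and Dbp to -0.30, -0.037 and -0.26 under these, to -0.019 under stricter gates and to -0.20 without cells carrying other markers. Clock turned to 0.25 without those cells and to 1.34 with granule-gene cells, and Nr1d1 to 1.60 with the latter. For mature against Ltf-high cells under stricter gates, Arntl turned to -0.14 and Nr1d1 to -0.55. Dbp turned to 0.15 in monocytes and 0.16 in macrophages with total UMIs. Leaving out the replicate block, that is fitting the sums without the pairing by pool, changed none of the counts of called clock genes, such as the 3 higher and 3 lower in monocytes. Without it the other clock genes went from 10 higher and 5 lower to 8 and 5 in Ltf-high against cycling cells and from 8 and 6 to 7 and 4 in mature against Ltf-high cells. The immediate early genes called higher went from 6 to 3 in Ltf-high against cycling cells, from 12 to 4 in mature against Ngp-positive cells and from 12 to 9 in mature against Ltf-high cells. Within single pools, the log2 change of Per1 in mature against Ltf-high cells was 2.41 to 2.71. Stricter gates and cells free of any other marker left under 30 cells in the Ngp-positive class of YO2 and were not fitted for its steps. The settings on granule genes, on other markers with 3 UMIs and without the Ngp-positive sums, and the contrast of mature against Ltf-high cells, were added after the data were seen. Depth limits Nr1d1, Nr1d2, Dbp and Arntl, at 17 to 56 UMIs in all mature cells.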
